A study of Homo sapiens with 4 samples.

Results

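The genes examined were the 48 of 59050 genes in the deposited count table whose symbol begins with PSM, followed by 1 letter from A to G and a number, which are the subunits of the human proteasome, its activators and inhibitor, and its assembly factors. They were chosen by name alone, with no measured value in the rule, though earlier results of these data were known. By role they comprised 19 genes of the core particle (PSMA and PSMB), 20 of the base and lid of the cap with the chaperones of the base (PSMC and PSMD), and 9 activators, inhibitor and core assembly factors (PSME, PSMF and PSMG). The 32 rows named as pseudogenes of these genes and 6 further PSM rows (antisense RNAs and interacting proteins) were left out. Poly(A) RNA of cells labelled as HepG2, a human line established from a liver tumour, was sequenced in 4 libraries to look for mRNAs under the control of p53. Of these, 2 were of untreated cells (0 h) and 2 of cells given doxorubicin, a drug that breaks DNA and thereby activates p53, at 1 µg/ml for 24 h, and the submitters describe each pair as biological replicates. All came from a single line in the same medium, and drug and time in culture cannot be told apart because the untreated cells stand for 0 h.

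The proteasome is the protease that degrades proteins tagged with ubiquitin. Its core particle is a barrel of stacked rings, alpha rings at the ends and beta rings inside, where the catalytic beta subunits face the chamber. A regulatory cap docks on the barrel: its base holds a ring of ATPases that unfolds the substrate, and its lid removes the ubiquitin chain. In cells exposed to interferon, alternative beta subunits are built in to form the immunoproteasome. Transcription of the subunit genes is known to be raised together when proteasome activity falls, through the factor NFE2L1 acting on antioxidant response elements in their promoters.

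The libraries held between 27572740 and 36272180 counts, and levels are given as CPM, the count of a gene divided by the library total and multiplied by 1000000. Pairs of values of a group are given with replicate 1 first. Untreated replicate 2 stood apart from the other libraries: across the 17479 genes tested, the median difference between untreated replicates was 0.90 on the log2 scale, against 0.25 between doxorubicin replicates. Values without that library are therefore given beside those it moved most. The liver markers went against the label, with a summed level of 0.965 to 5.92 CPM over 10 genes and at most 3 counts of ALB in any library, while 4 markers of squamous epithelium summed to between 931 and 1594 CPM, nearly all of it KRT17. Summed leukocyte markers lay between 0.874 and 17.8 CPM, the highest value being CD14 in untreated replicate 2. Fibroblast markers summed to between 116 and 155 CPM, most of it COL1A1 and COL3A1, while COL1A2 had at most 2 counts in any library. The part of cell identity in the values below was not tested, and in bulk RNA fewer cells of a type and less RNA per cell cannot be told apart.

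Proteasome genes took 0.749% and 0.801% of all counts in the untreated libraries, and 0.706% and 0.637% in the treated ones. Both treated libraries were thus below both untreated ones. Of the 48 genes, 43 had enough counts to be tested, and 5 did not: PSMA8, PSMB3, PSMB8, PSMB9 and PSMB11. The treated libraries were set against the untreated ones with edgeR's quasi-likelihood test, with TMM factors for the library sizes and Benjamini-Hochberg adjustment over all 17479 genes. A gene was called when its adjusted p-value was under 0.05 and its log2 fold change reached 1 in either direction. No proteasome gene was called (0 of 43, against 0.0% of all genes), and 0 had an unadjusted edgeR p-value under 0.05, against 4.39% of all genes (2.66% higher and 1.73% lower with doxorubicin). DESeq2 called 0.509% of all genes, the exact test of edgeR 0.217%, a fit with the replicate number as a block 0.114%, and each of them 0 proteasome genes. The smallest unadjusted p-value in edgeR was 0.0694 (PSMC4), and the adjusted values of the 43 genes lay between 0.773 and 0.998.

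Most fold changes were small and below 0. The median log2 fold change of the 43 genes was -0.24, against 0.01 over all genes tested, and 29 lay below 0 and 14 above, against 49.2% of all genes below 0. Only PSMB10 had a fold change of at least 1 on the log2 scale in either direction, against 19.2% of all genes. Without untreated replicate 2 the median was -0.27, with 38 of 43 genes below 0, against 46.0% of all genes. In that comparison untreated replicate 1 was the only untreated library, and the spread came from the doxorubicin pair alone. That comparison called 0 proteasome genes, against 4.42% of all genes called as higher and 0.566% as lower, and gave an unadjusted edgeR p-value under 0.05 for 4 of them, PSMB5, PSMB7, PSMC4 and PSME3, all lower with doxorubicin, against 6.83% of all genes, and for 0 that were higher, against 12.7%. The smallest adjusted p-value among the 43 was then 0.135. Without untreated replicate 1 instead, edgeR called PSMD1, PSMD14, PSME4 and PSMG2 as higher (4 genes, against 21.4% of all genes) and PSMB4, PSMB10, PSMC3 and PSME2 as lower (4 genes, against 19.6%). These 8 calls were made with untreated replicate 2 as the only untreated library. In that comparison 8 genes were higher and 16 lower at an unadjusted edgeR p-value under 0.05, against 31.2% and 29.6% of all genes.

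**Figure D1:**
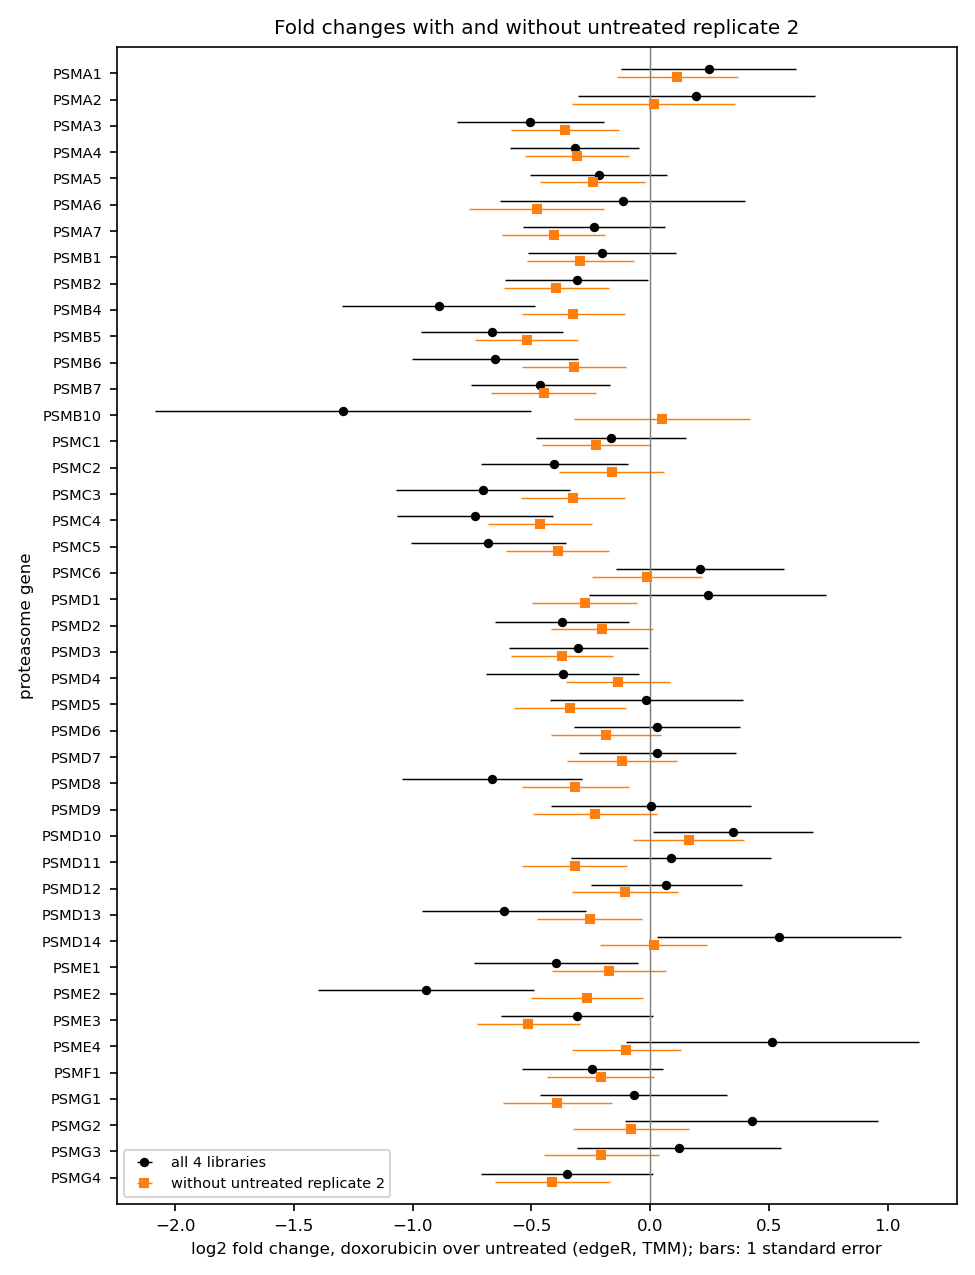
The log2 fold change of each of the 43 tested proteasome genes (vertical axis, in order of symbol) is plotted as doxorubicin over untreated on the horizontal axis, with bars of 1 standard error, for all 4 libraries (black circles) and without untreated replicate 2 (orange squares). With all libraries the points run from -1.29 to 0.54 with wide bars, and without that library 38 of 43 lie below 0 within a narrow band. The orange bars rest on untreated replicate 1 as the only untreated library and take their spread from the doxorubicin pair.

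The agreement of the replicates differed by treatment. Untreated replicates were a median of 0.48 apart on the log2 scale for the proteasome genes, and doxorubicin replicates 0.19. At least a 2-fold difference between untreated replicates was found for 7 of 43 genes, against 45.9% of all genes, and for 0 of 43 between doxorubicin replicates, against 6.09%. For 16 genes the highest of the 4 values was in untreated replicate 2 (36.6% of all genes), and for 20 the lowest (45.0%). In CPM, both treated libraries lay below both untreated libraries for 13 of 43 genes, against 11.5% of all genes, and above both for 6, against 30.3%. Against untreated replicate 1 alone, both treated libraries were lower for 27 genes (24.7% of all genes) and higher for 6 (53.1%). These counts moved with the scaling, because TMM factors lowered the treated libraries relative to the untreated ones. On TMM-scaled CPM, a scaling added after the data had been seen, both treated libraries were below both untreated ones for 20 genes (17.9% of all genes) and above for 2 (21.3%), and below untreated replicate 1 for 35 (37.4%) and above it for 2 (40.0%).

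**Figure D2:**
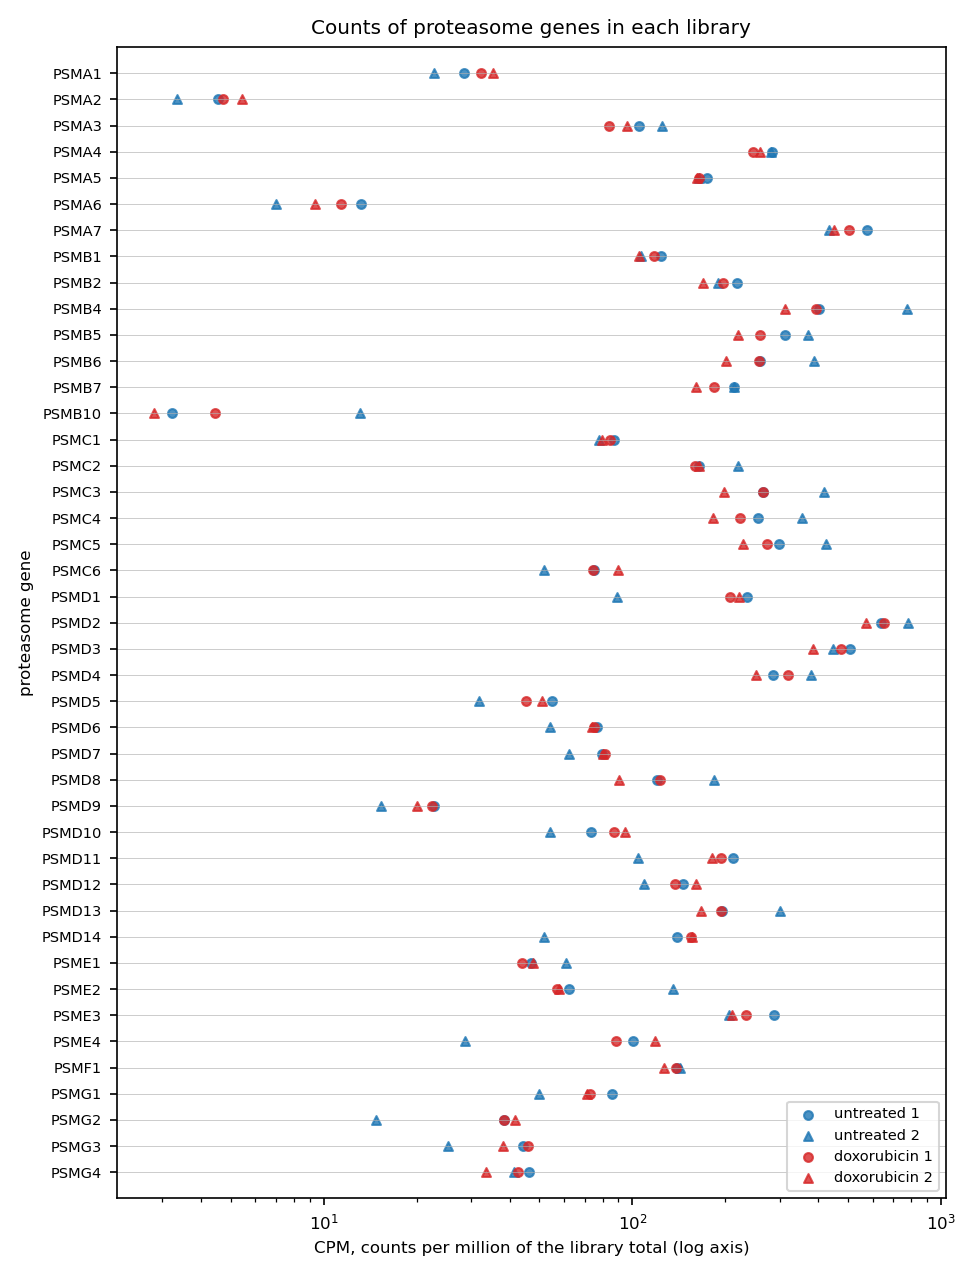
Each point is the CPM of 1 proteasome gene in 1 library (horizontal log axis), for the 43 tested genes in order of symbol, with untreated libraries in blue, doxorubicin libraries in red, circles for replicate 1 and triangles for replicate 2. The 2 red points of a gene lie close together, while the blue triangle of untreated replicate 2 is often at one end, as for PSMB4, PSME2 and PSME4.

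Among the core, the base and lid, and the remaining genes, the core particle differed most between untreated and treated cells by summed level. Its genes summed to 2716 and 3098 CPM in untreated cells and 2458 and 2186 CPM in treated cells, with means of 2907 ± 270.4 CPM untreated and 2322 ± 192 CPM treated (SD, n = 2 in each group). Both treated libraries were below both untreated ones, and the log2 ratio of the means was -0.32, or -0.23 without untreated replicate 2. Within the core it was -0.48 for the beta genes and -0.11 for the alpha genes, or -0.25 and -0.20 without untreated replicate 2. PSMB4 alone made up 20.3% of the core sum in untreated cells. The base and lid summed to 3927 and 4209 CPM in untreated cells and 3841 and 3443 CPM in treated cells, with means of 4068 ± 199 CPM untreated and 3642 ± 282 CPM treated (SD, n = 2 in each group). Here too the treated libraries were the lower ones, by a log2 ratio of -0.16 and of -0.11 without untreated replicate 2. The median over the genes of the log2 ratio of CPM was 0.068 for the base and lid. In CPM with all libraries the lower sum was thus not shared by most of its genes, and PSMD2 alone made up 17.5% of the sum in untreated cells. In the edgeR fit 11 of 20 base and lid genes were below 0, and 18 of 20 without untreated replicate 2. By summed CPM the log2 ratio was -0.41 for the base ATPases, -0.12 for the other base subunits, -0.03 for the lid and 0.34 for the base chaperones. Without untreated replicate 2 these ratios were -0.18, -0.06, -0.11 and 0.08, in the same order. Activators, inhibitor and core assembly factors summed to 850.3 and 705 CPM in untreated cells and 761 and 744 CPM in treated cells, with means of 777 ± 103 CPM untreated and 753 ± 11.5 CPM treated (SD, n = 2 in each group). In this group the treated libraries lay between the untreated ones, with a log2 ratio of -0.05, and it was -0.18 without untreated replicate 2 but 0.10 without untreated replicate 1. An exact permutation test of 2 against 2 libraries cannot give a p-value under 0.333, so no test was made of the sums.

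**Figure D3:**
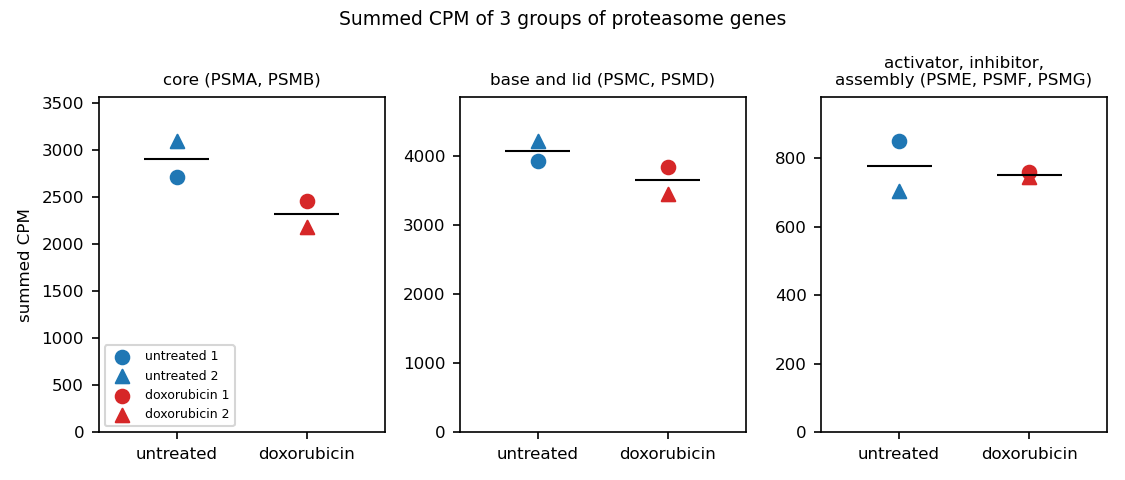
Summed CPM (vertical axis from 0) of the core, the base and lid, and the activator, inhibitor and assembly genes is shown for each library, with a line at the mean of each group of 2. The treated libraries lie below both untreated libraries for the core (2186 and 2458 against 2716 and 3098 CPM) and for the base and lid, and between them for the third panel.

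The 3 catalytic subunits of the standard core were all lower in the treated libraries. Positions are those of the whole gene in GENCODE 44 on GRCh38. PSMB5 (chr14:23016543-23035230, minus strand), which carries the chymotrypsin-like activity and is the main target of proteasome inhibitors, had 312 and 371 CPM in untreated cells and 259.8 and 219 CPM in treated cells. PSMB6, the caspase-like subunit (chr17:4796144-4798502, plus strand), had 259.7 and 388 CPM in untreated cells and 256 and 201 CPM in treated cells. PSMB7, the trypsin-like subunit (chr9:124353465-124415444, minus strand), had 213 and 213 CPM in untreated cells and 184 and 160.1 CPM in treated cells. The groups did not overlap for any of the 3, and both treated libraries were the lowest, as for 13 of 43 tested proteasome genes and 11.5% of all genes. For PSMB6 the groups came close, at 256 CPM treated against 259.7 CPM untreated. Their log2 fold changes were -0.66 ± 0.30 for PSMB5, -0.65 ± 0.35 for PSMB6 and -0.46 ± 0.29 for PSMB7 (± SE here and below, n = 2 libraries a group with all libraries), and none passed the test. Without untreated replicate 2 they were -0.52 ± 0.22, -0.32 ± 0.22 and -0.45 ± 0.22, in the same order. Here and below, an SE given without an untreated library rests on the other untreated library alone and takes its spread from the doxorubicin pair.

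Of the immunoproteasome subunits, which replace these 3 after interferon, only 1 had more than 0 counts. PSMB8, the counterpart of PSMB5 (chr6:32840717-32844679, minus strand), and PSMB9, the counterpart of PSMB6 (chr6:32844136-32859851, plus strand), were listed at 0 counts in all 4 libraries. A count of 0 allows up to 0.0827 and 0.104 CPM in the untreated and 0.0874 and 0.109 CPM in the treated libraries, which is the level of 3 counts and covers counting error only. PSMB10, the counterpart of PSMB7 (chr16:67934506-67936864, minus strand), had 3.23 and 13.1 CPM in untreated cells and 4.43 and 2.83 CPM in treated cells. The value in untreated replicate 2 exceeded the other 3 by far, and those overlapped. The log2 fold change was -1.29 ± 0.79 with all libraries and 0.05 ± 0.37 without that one. PSMB10 had the highest GC content of the tested proteasome genes, and 38.3% of its exon length is shared with another gene on the same strand.

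Zeros on PSMB8 and PSMB9 stood in a stretch of chromosome 6 where nearly every gene was near 0. Both lie in the major histocompatibility complex. Of the 20 nearest protein-coding genes of each, 10 on either side, 19 had at most 10 counts summed over the 4 libraries, against a median of 2 (0 to 8) for the 45 proteasome genes other than PSMB8, PSMB9 and PSMB3, and against 24.0% of all 18867 protein-coding genes matched. Among the 19 were TAP1 and TAP2, the peptide transporter that the immunoproteasome serves, with 0 and 2 counts in all, and only BRD2 exceeded 10, with 512. The cause of these zeros was not tested.

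PSMB3 was the other exception within the core. This structural beta subunit belongs to every core particle, whatever its catalytic subunits (chr17:38752741-38764225, plus strand), yet it was listed at 3 and 1 counts in the untreated libraries and at 1 and 2 in the treated ones. The other 13 alpha and beta subunits of the standard core had between 97 and 22425 counts in each library. Of the 20 nearest protein-coding genes of PSMB3, 10 had at most 10 summed counts. Its 2 neighbours on each side were CISD3 with 5, PCGF2 with 2, PIP4K2B with 7 and CWC25 with 2 counts in all, while the ribosomal gene RPL23, 4 places on, had 72876. A gene listed at or near 0 in such a neighbourhood is not thereby shown to be absent from the cells.

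**Figure D4:**
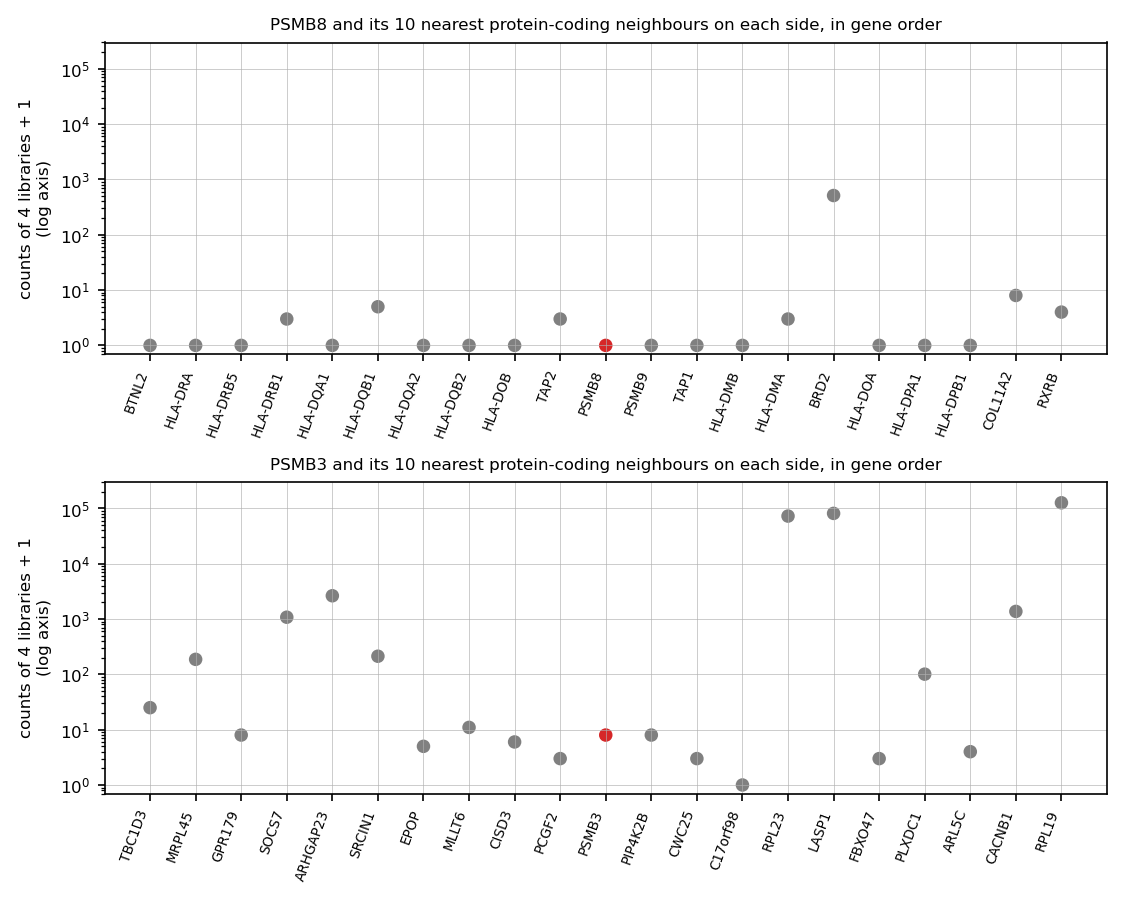
Counts summed over the 4 libraries, plus 1 on a log axis, are plotted for PSMB8 (upper panel, red), PSMB3 (lower panel, red) and their 10 nearest protein-coding neighbours on each side (grey) in the order of the genes along the chromosome. Around PSMB8 only BRD2 exceeds 10 counts, and PSMB3 sits in a run of low genes that ends at RPL23.

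2 core subunits are known from other tissues. PSMA8, which takes the place of PSMA7 in the testis, had 1 count in untreated replicate 2 and 0 in the other 3 libraries. PSMB11, the catalytic subunit of the thymus, had 110 counts in untreated replicate 2 (3.81 CPM), 1 in doxorubicin replicate 2 and 0 in the other libraries. Neither was tested, and the germ cell markers were near 0 as well, with summed levels of 0.204 to 0.399 CPM over 3 genes.

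Alpha subunits, which build the outer rings and the gate of the barrel, showed fold changes on either side of 0. PSMA3 had 105 and 124 CPM in untreated cells and 84.1 and 96.1 CPM in treated cells, and PSMA4 had 283 and 280.3 CPM in untreated cells and 246 and 259 CPM in treated cells. For both genes the treated libraries lay below the untreated ones, with log2 fold changes of -0.50 ± 0.31 and -0.32 ± 0.27, and of -0.36 ± 0.23 and -0.31 ± 0.22 without untreated replicate 2. PSMA1 had 28.4 and 22.8 CPM untreated and 32.4 and 35.5 CPM treated, and PSMA2 had 4.55 and 3.36 CPM untreated and 4.72 and 5.44 CPM treated. For these genes the treated libraries were the higher ones, with log2 fold changes of 0.25 ± 0.37 and 0.20 ± 0.50, which became 0.12 ± 0.25 and 0.02 ± 0.34 without untreated replicate 2. The 3 remaining tested alpha genes, PSMA5, PSMA6 and PSMA7, had log2 fold changes from -0.24 to -0.12, and from -0.48 to -0.24 without untreated replicate 2.

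With all libraries, the alpha genes with the higher fold changes were also genes that share exons with another gene. Without untreated replicate 2, PSMA6 had the lowest log2 fold change of the tested alpha genes (-0.48), and PSMA1 and PSMA2 the highest (0.12 and 0.02). In the GENCODE 44 annotation of GRCh38, PSMA2 shares 94.7% of its exon length with another gene on the same strand, PSMA6 63.9% and PSMA1 41.4%, in each case with a protein-coding gene that has no symbol. Per kilobase of exon, these 3 genes had mean levels of 3.13, 7.11 and 15.4 CPM, while the 10 other counted subunits of the standard core had 36.0 to 513, with a median of 161. Where reads of shared exons could be split or dropped in counting, the level of a gene is uncertain. This may hold for these 3 genes and for PSMB10 and PSMD9 (14.2% shared). The counts name GENCODE release 31, and overlaps in that release were not examined. The part of shared exons in the values was not tested. PSMC1 and PSMD7 overlap genes on the opposite strand (83.2% and 27.6% of exon length), whose reads can be told apart only if the counting used the strand, which is not given in the sources used here.

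The beta subunits without catalytic activity gave fold changes below 0 as well. PSMB4 had 401 and 777 CPM in untreated cells and 393 and 312 CPM in treated cells. Untreated replicate 2 was almost 2-fold above replicate 1, while doxorubicin replicate 1 lay just under untreated replicate 1. The log2 fold change was -0.89 ± 0.41, and -0.32 ± 0.22 without untreated replicate 2. PSMB1 had 124 and 106 CPM untreated and 118 and 105 CPM treated, and PSMB2 had 219 and 189 CPM untreated and 197 and 169 CPM treated. In these 2 genes the groups overlapped, with log2 fold changes of -0.20 ± 0.31 and -0.31 ± 0.30, and of -0.29 ± 0.23 and -0.39 ± 0.22 without untreated replicate 2. All 7 tested beta genes had fold changes below 0, with a median of -0.65, against -0.22 for the 7 tested alpha genes. Without untreated replicate 2 these medians were -0.32 and -0.31, and PSMB10 was the only beta gene above 0.

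The 6 ATPases of the base thread the substrate into the core. PSMC4 had 254 and 354 CPM in untreated cells and 223 and 182 CPM in treated cells, with non-overlapping groups and a log2 fold change of -0.74 ± 0.33, and of -0.46 ± 0.22 without untreated replicate 2. PSMC3 had 264 and 416 CPM in untreated cells and 264 and 199 CPM in treated cells, so that doxorubicin replicate 1 was level with untreated replicate 1, and the log2 fold change was -0.70 ± 0.37, and -0.33 ± 0.22 without untreated replicate 2. PSMC1 had 87.2 and 77.8 CPM untreated and 84.5 and 79.5 CPM treated, and PSMC6 had 75.0 and 51.7 CPM untreated and 74.3 and 89.7 CPM treated. Their log2 fold changes of -0.16 ± 0.32 and 0.21 ± 0.35 were the highest of the 6, and PSMC6, the only one above 0, came to -0.01 ± 0.23 without untreated replicate 2. PSMC2 and PSMC5 had values of -0.40 and -0.68, and of -0.16 and -0.39 without that library. Untreated replicate 2 was the highest library for PSMC2, PSMC3, PSMC4 and PSMC5 and the lowest for PSMC1 and PSMC6.

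The ubiquitin receptors of the base had fold changes below 0, and the deubiquitinase of the lid had one above 0. PSMD2, a receptor and scaffold and the gene with the highest counts of the base and lid, had 639 and 783 CPM in untreated cells and 651 and 571 CPM in treated cells. PSMD4, the other receptor among the members, had 285 and 379.5 CPM in untreated cells and 320.1 and 251 CPM in treated cells. In both the groups overlapped, at log2 fold changes of -0.37 ± 0.28 and -0.37 ± 0.32, and of -0.20 ± 0.22 and -0.13 ± 0.22 without untreated replicate 2. PSMD14 (chr2:161308425-161411717, plus strand), the metalloprotease that cuts ubiquitin chains from the substrate, had 139 and 51.5 CPM in untreated cells and 155 and 155 CPM in treated cells. Both treated libraries were above both untreated ones, but untreated replicate 1 was only slightly below them and untreated replicate 2 far below. The log2 fold change was accordingly 0.54 ± 0.51 with all libraries, 0.02 ± 0.23 without untreated replicate 2 and 1.41 ± 0.24 without untreated replicate 1.

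Other lid subunits had fold changes on both sides of 0. PSMD8 had 121 and 184 CPM untreated and 122 and 90.2 CPM treated, and PSMD13 had 195 and 301 CPM untreated and 194 and 167 CPM treated. They had the lowest fold changes of the PSMD genes, -0.67 ± 0.38 and -0.61 ± 0.35, with untreated replicate 2 the highest library in both. Without that library their values were -0.32 ± 0.23 and -0.26 ± 0.22, and those of PSMD3 (-0.37) and PSMD5 (-0.34) were then lower. PSMD3, the lid gene with the most counts, had 505 and 447 CPM in untreated cells and 474 and 384 CPM in treated cells. Its groups overlapped, and its log2 fold change was -0.30 ± 0.29. PSMD6, PSMD7, PSMD11 and PSMD12 had log2 fold changes from 0.03 to 0.09 with all libraries, from -0.32 to -0.11 without untreated replicate 2 and from 0.19 to 0.66 without untreated replicate 1. PSMD1, the largest scaffold of the base, had 0.24 ± 0.50 with all libraries and -0.28 ± 0.22 without untreated replicate 2.

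Chaperones of the base, which assemble the ATPase ring and are not part of the finished particle, had fold changes from -0.02 to 0.35 on the log2 scale. PSMD10, also known as the oncoprotein gankyrin, had 73.4 and 54.1 CPM in untreated cells and 86.8 and 94.4 CPM in treated cells. Both treated libraries were above both untreated ones, at a log2 fold change of 0.35 ± 0.34, and of 0.16 ± 0.23 without untreated replicate 2, the highest value of the 43 genes in that comparison. PSMD5 had 55.1 and 31.9 CPM untreated and 45.1 and 51.1 CPM treated, and PSMD9 had 22.7 and 15.3 CPM untreated and 22.5 and 20.0 CPM treated. Their log2 fold changes were -0.02 ± 0.41 and 0.00 ± 0.42, and -0.34 ± 0.24 and -0.23 ± 0.26 without untreated replicate 2.

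Activators open the gate of the core in place of the cap. PSME1 and PSME2, which form the interferon-inducible activator together, had 46.9 and 61.1 CPM in untreated cells and 44.04 and 47.5 CPM in treated cells (PSME1) and 62.5 and 135 CPM in untreated cells and 56.8 and 57.7 CPM in treated cells (PSME2). Untreated replicate 2 was the highest library for both, at more than 2-fold the other 3 for PSME2. The log2 fold changes were -0.39 ± 0.35 and -0.94 ± 0.45, and -0.17 ± 0.24 and -0.27 ± 0.24 without that library. PSME3, the nuclear activator, had 287 and 205 CPM in untreated cells and 233 and 209.7 CPM in treated cells. The groups overlapped with all libraries (log2 fold change -0.31 ± 0.32), and both treated libraries were below untreated replicate 1 (log2 fold change -0.51 ± 0.22, adjusted p = 0.144 in edgeR). PSME4, a nuclear activator known for its role in DNA repair and in the removal of histones, had 101 and 28.6 CPM in untreated cells and 88.7 and 119 CPM in treated cells. Here untreated replicate 2 was by far the lowest library, the treated libraries lay on either side of untreated replicate 1, and the log2 fold change was 0.52 ± 0.62, -0.10 ± 0.23 without untreated replicate 2 and 1.67 ± 0.26 without untreated replicate 1.

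The inhibitor differed little between the libraries, while 3 of the 4 core assembly factors had their lowest level in untreated replicate 2. PSMF1, which binds the core and was named for blocking it in vitro, had 139 and 143 CPM in untreated cells and 138 and 127 CPM in treated cells, a span narrower than that of any activator, with a log2 fold change of -0.24 ± 0.30. PSMG1 and PSMG2 act as a pair in building the alpha ring. PSMG1 had 85.7 and 49.7 CPM untreated and 72.9 and 71.0 CPM treated, and PSMG2 had 38.3 and 14.8 CPM untreated and 38.3 and 41.5 CPM treated. The other core assembly factors had 44.1 and 25.3 CPM untreated and 46.0 and 38.0 CPM treated (PSMG3) and 46.2 and 41.3 CPM untreated and 42.7 and 33.6 CPM treated (PSMG4). The log2 fold changes of PSMG1 to PSMG4 were -0.07 ± 0.39, 0.43 ± 0.53, 0.12 ± 0.43 and -0.35 ± 0.36, and all 4 were below 0 without untreated replicate 2, from -0.41 to -0.08.

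The differences between replicates went with the base composition of the transcripts. Across the 43 genes, the log2 ratio of doxorubicin replicate 2 to replicate 1 had a Pearson correlation of -0.84 and a Spearman correlation of -0.86 with the GC content of the canonical transcript, against -0.31 and -0.46 over 14468 tested genes with an annotation. The log2 ratio of untreated replicate 2 to replicate 1 went the opposite way, at 0.55 and 0.52, against 0.18 and 0.19 over all genes. The log2 fold change with all libraries had correlations of -0.63 and -0.60, against -0.22 and -0.26 over all genes. Without untreated replicate 2 they were -0.32 and -0.34, against -0.035 and -0.12 over all genes. The log2 ratio of doxorubicin replicate 1 to untreated replicate 1 had correlations of 0.22 and 0.16 (0.06 and 0.04 over all genes). That of doxorubicin replicate 2 to untreated replicate 1 had -0.64 and -0.67 (-0.13 and -0.24 over all genes). These are correlations across genes that share the same libraries, given as a description, and genes are not independent replicates. The part of base composition in the fold changes was not tested.

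**Figure D5:**
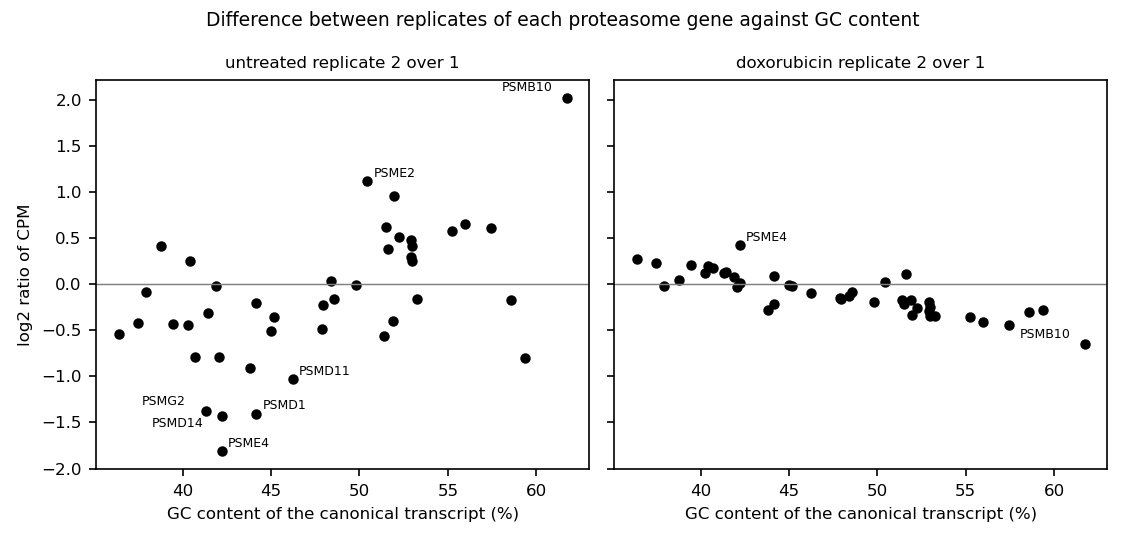
The log2 ratio of CPM between replicates is plotted against the GC content (%) of the canonical transcript for the 43 tested proteasome genes, for untreated replicates on the left and doxorubicin replicates on the right. The untreated points scatter around a rising trend that ends at PSMB10, and the doxorubicin points follow a tight falling one (Pearson correlation -0.84).

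Promoters were examined because the members are known to be controlled together. RefSeq windows on GRCh38.p14, from 250 bases before to 50 after each start site, were found for 42 of the 48 genes (51 windows), and not for PSMA7, PSMB1, PSMB6, PSMB7, PSMD4 and PSMG3. The core of the antioxidant response element, TGACNNNGC on either strand and at any overlap with other motifs, was present in a window of 15 of 42 genes (35.7%), against 16.1% of all 27305 genes with a window. CCGGAAG, bound by ETS factors, was present in 15 (35.7%, against 12.2%), CCAAT, bound by NF-Y, in 20 (47.6%, against 39.7%) and TTTGAA, the cell cycle homology region, in 6 (14.3%, against 18.2%). A match is a description of letters and not a site of binding. The upstream 150 bases of 4 promoters are shown because they hold the element in genes that differed in these libraries: PSMB3 was listed near 0, PSMD3 was among the most counted, and PSME4 and PSMG2 were 2 of the genes whose level in untreated replicate 2 was far below the other libraries. Each is read 5′ to 3′ on the strand of the gene up to the base before the start site, with the element in capitals.
PSMB3: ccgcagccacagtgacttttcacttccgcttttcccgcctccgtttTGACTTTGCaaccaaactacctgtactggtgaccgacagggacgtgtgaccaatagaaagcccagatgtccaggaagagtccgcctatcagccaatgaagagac
PSMD3: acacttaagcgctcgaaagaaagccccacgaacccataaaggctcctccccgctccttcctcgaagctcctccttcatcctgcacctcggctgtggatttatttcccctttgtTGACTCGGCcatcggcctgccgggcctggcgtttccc
PSME4: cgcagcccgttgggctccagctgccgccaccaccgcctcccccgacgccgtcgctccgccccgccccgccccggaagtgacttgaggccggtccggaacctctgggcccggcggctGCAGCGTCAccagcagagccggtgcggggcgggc
PSMG2: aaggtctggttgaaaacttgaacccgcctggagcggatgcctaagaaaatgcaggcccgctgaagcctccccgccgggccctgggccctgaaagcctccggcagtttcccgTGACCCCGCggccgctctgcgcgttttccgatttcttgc
They lie at chr17:38752591-38752740 (plus strand) for PSMB3, chr17:39980657-39980806 (plus strand) for PSMD3, chr2:53970994-53971143 (minus strand) for PSME4 and chr18:12658588-12658737 (plus strand) for PSMG2. Counting the base before the start site as -1, the element spans -104 to -96 in PSMB3, -37 to -29 in PSMD3, -34 to -26 in PSME4 and -39 to -31 in PSMG2, and it is on the opposite strand in PSME4.

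The order of the medians of genes with and without the element turned with untreated replicate 2. The 13 tested genes with a match had a median log2 fold change of -0.07 with all libraries and -0.28 without untreated replicate 2, where all 13 lay below 0. The 24 tested genes with a window and no match had medians of -0.28 and -0.23, with 19 of 24 below 0 in the second comparison. In it, 38 of all 43 tested proteasome genes and 46.0% of all genes lay below 0. The ranges overlapped there, from -0.46 to -0.08 with a match and from -0.52 to 0.16 without. A relation of the element to the fold changes was not tested.

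Other genes of the ubiquitin-proteasome system had fold changes on both sides of 0. Of a list of 33 such genes, 29 were tested, and 0 were called by edgeR (against 0.0% of all genes), by DESeq2 or by the exact test. Their median log2 fold change was 0.04, with 16 above 0 and 13 below, against 49.2% of all genes below 0. Of the 29, 1 had an unadjusted edgeR p-value under 0.05, against 4.39% of all genes. UBB, which encodes ubiquitin, had 572 and 713 CPM untreated and 695 and 621 CPM treated, with a log2 fold change of -0.12 ± 0.28, and of 0.06 ± 0.22 without untreated replicate 2. Without untreated replicate 2, PAAF1 and B2M were among the genes of the list under an unadjusted edgeR p-value of 0.05, and 0 genes of the list were called, while without untreated replicate 1 edgeR called 11, against 21.4% of all genes as higher and 19.6% as lower.

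For each of 4 genes that control transcription of the members, untreated replicate 2 was the highest or the lowest library, as it was for most genes tested (36.6% highest and 45.0% lowest). NFE2L1, which activates proteasome genes, had 353 and 1505 CPM in untreated cells and 503 and 411 CPM in treated cells. Its level in untreated replicate 2 was more than 4-fold that in replicate 1, and the log2 fold change was -1.17 ± 0.67 with all libraries and 0.24 ± 0.22 without that library. Its relative NFE2L2 had 53.9 and 30.4 CPM untreated and 60.3 and 84.7 CPM treated, and a log2 fold change of 0.62 ± 0.42, and of 0.28 ± 0.24 without untreated replicate 2. DDI2 and NGLY1, the protease and the glycanase that release active NFE2L1, had log2 fold changes of 0.61 ± 0.53 and 0.70 ± 0.52, and of 0.13 ± 0.25 and 0.19 ± 0.24 without untreated replicate 2.

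Subunits and assembly factors with other names also lay on both sides of 0. ADRM1, a ubiquitin receptor, SEM1, a lid subunit, and POMP, which matures the core, had log2 fold changes of -0.40 ± 0.32, -0.26 ± 0.33 and -0.17 ± 0.32, and of -0.17 ± 0.22, -0.01 ± 0.23 and 0.07 ± 0.23 without untreated replicate 2. PAAF1, a factor that binds the base ATPases, had 13.7 and 12.1 CPM in untreated cells and 24.8 and 24.8 CPM in treated cells. Both treated libraries were above both untreated ones, as for 10 of the 29 tested genes of the list and 30.3% of all genes. The log2 fold change of PAAF1 was 0.78 ± 0.39 with all libraries and 0.72 ± 0.28 without untreated replicate 2. Of the antigen presentation genes in the list, TAP1, TAP2 and TAPBP, which lie in the histocompatibility complex as PSMB8 and PSMB9 do, were not tested, and TAP1 was listed at 0. B2M, which lies outside it, had 60.8 and 123 CPM untreated and 91.5 and 112 CPM treated, with a log2 fold change of -0.01 ± 0.43, and of 0.60 ± 0.24 without untreated replicate 2 (adjusted p = 0.108 in edgeR).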

How the data were processed

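Poly(A) RNA of 2 untreated and 2 doxorubicin-treated cultures was sequenced. According to the study's methods, the authors trimmed reads with Cutadapt, mapped them with HISAT2 and counted them with HTSeq, and they deposited raw counts per gene for each library, without normalization (build hg38, GENCODE release 31 in the file headers). Strand and counting mode are not given in the sources used here. One characteristic of the treated samples reads as a miRNA term in place of the drug, and their titles, protocol and series text were followed. CPM was the count divided by the library total. At 27572740 to 36272180 counts, 1 count is 0.0276 to 0.0363 CPM. The labels name no batch.

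Genes passing filterByExpr (17479) were fitted in edgeR 4.0.16 (R 4.3.3) with TMM factors of 0.944, 0.951, 1.02 and 1.09 (untreated replicates 1 and 2, doxorubicin replicates 1 and 2) and the quasi-likelihood test, treatment being the only term, and p-values were adjusted by the Benjamini-Hochberg method over all genes. With all libraries the p-values measure the spread between 2 libraries a group. With a library left out, its group holds only 1 library and the spread comes from the other group alone. The SE of a log2 fold change was its size divided by the square root of F, and the script was tested on simulated data. Alternatives were DESeq2 1.42.0, the edgeR exact test, RLE factors, library size alone, other filters on low counts, a replicate block, and leaving out each library in turn. Libraries with the same number did not deviate together (correlation across genes of 0.0219), so the numbers were not taken to pair the libraries.

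The members, the list of 33 other genes, the markers and the motifs were chosen with earlier results of these data known. Genes given with the value in every library were named by role (catalytic, immunoproteasome and tissue-restricted subunits, ubiquitin receptors, the deubiquitinase, activators, inhibitor and chaperones) or as the 2 highest and 2 lowest log2 fold changes of the PSMA, PSMB, PSMC and PSMD classes. PSMD3 was added for its promoter, and genes of the list of 33 were named after their values were seen. One gene of that list is not reported here. Exon length, overlap and GC content came from GENCODE 44 (GRCh38), by symbol, for 48 of 48 members and 83.3% of genes tested. Promoter windows were from RefSeq (GRCh38.p14). Protein sequences were not analysed here.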

Additional observations from a re-analysis of the deposited data

How the results depend on the processing

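The number of proteasome genes called was 0 with every test, normalization and filter tried, and 0 to 8 when each library was left out in turn, the 8 coming without untreated replicate 1. For the other ubiquitin-proteasome genes it was 0 in the same settings and 0 to 11 on leaving out a library, the 11 again without untreated replicate 1. The proteasome genes had a median log2 fold change below 0 in all of them, which lay between -0.36 and -0.14 on leaving out a library. Library size alone raised the median of all genes by 0.16 on the log2 scale against TMM, and the proteasome genes remained 0.26 below it under both. With the replicate number as a block the median was -0.25, 0 proteasome genes were called, and edgeR called 20 genes in all.

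The log2 ratio of summed CPM moved with the scaling, from -0.32 to -0.48 (TMM) and -0.53 (RLE) for the core, from -0.16 to -0.31 and -0.37 for the base and lid, and from -0.05 to -0.20 and -0.25 for the activator, inhibitor and assembly genes. As a median over the genes it was -0.16 for the core and 0.068 for the base and lid. Leaving out a library gave -0.42 to -0.23 for the core, -0.24 to -0.08 for the base and lid and -0.18 to 0.10 for the third set. Of the proteasome genes named by the rule, 8 changed sign in at least 1 setting. Beyond the rule, PSMA6 was above 0 without untreated replicate 1 (0.39), and PSMD1, PSMD6, PSMD7, PSMD11, PSMD12, NFE2L1, POMP, UBB and B2M were among those that changed sign without untreated replicate 2. For the 8, on leaving out a library, the log2 fold change ran from -2.01 to 0.050 for PSMB10, -0.014 to 0.48 for PSMC6, -0.10 to 1.67 for PSME4, -0.39 to 0.35 for PSMG1, -0.080 to 1.25 for PSMG2, -0.21 to 0.55 for PSMG3, -0.34 to 0.41 for PSMD5 and -0.23 to 0.29 for PSMD9. PSMD5 was also above 0 by library size alone (0.14), with no filter on low counts (0.025) and with the replicate block (0.037), PSMD9 below 0 with DESeq2 (-0.045), RLE factors (-0.046) and the CPM filter (-0.017), and PSMG1 above 0 by library size alone (0.087). The cause was not tested. With 2 libraries a group and a biological coefficient of variation of 0.486, the SE of the members' log2 fold changes ran from 0.27 to 0.79.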
